A study of Mus musculus with 25 samples.

Results

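The nuclear genes for the subunits of the mitochondrial respiratory chain and the ATP synthase were followed across the duodenum of 5 groups of mice. Members were taken by symbol alone, as the gene rows named Nduf with a letter a, b, c, s or v and a number, Sdha to Sdhd, Uqcr, Cox4 to Cox8, or Atp5, with pseudogene names ending in -ps left out. This gave 80 of the 17007 genes in the deposited count table. By their names, 37 belong to complex I, 4 to complex II, 8 to complex III, 14 to complex IV and 17 to complex V. All 80 passed the filter on low counts in every comparison, and 79 held more than 20 reads in each of the 25 libraries. Cox6a2, Cox7b2, Cox8b and Cox8c, isoforms restricted to other tissues, have names that fit this rule but were not among the 80 rows found.

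Complex I takes electrons from NADH and complex II takes them from succinate, and both hand them to ubiquinone in the inner mitochondrial membrane. Complex III passes them to cytochrome c and complex IV to oxygen, and the proton gradient built by complexes I, III and IV drives ATP synthesis by complex V. Each complex but complex II also holds subunits encoded by mitochondrial DNA, so the nuclear genes described here are one of its sources. In the small intestine the absorptive enterocytes of the villus are rich in mitochondria and spend much of their ATP on nutrient uptake. Aldh2, the gene altered in the knock-in mice, encodes a mitochondrial enzyme that oxidises the acetaldehyde made from ethanol and releases NADH, the substrate of complex I.

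Polyadenylated RNA was measured in duodenum from male C57BL/6N mice (WT) and Aldh2KI mice (KI), a knock-in line whose allele the labels do not describe further. The mice were 8 weeks old when feeding began and were fed for 8 weeks. WT_Con and KI_Con had a control diet (4 libraries each). WT_Half (7 libraries) and KI_Half (6 libraries) had a diet with 2.5% ethanol and 2 gavages a week of 2 g/kg ethanol. WT_Full (4 libraries) had 5% ethanol and 2 gavages a week of 4 g/kg. The final ethanol gavage is given as 5 g/kg, with killing 9 h later, and the series text does not repeat this dose by diet. Gavage of the control mice is not stated in the sources used here, so ethanol and gavage cannot be told apart. There was no KI group on 5% ethanol. The labels do not say that the libraries of a group came from separate mice, and p-values measure the spread between these libraries.

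The libraries held 24580461 to 44846281 counted reads with a median of 32024367, and the 80 genes took 1.66% to 2.50% of them. All 10 villus enterocyte markers were present in every library, with a summed level of 16648 to 48387 in scaled counts-per-million (CPM). Markers of the Brunner glands, which lie under the duodenal mucosa, summed to between 15.3 and 53685 CPM. They ran from 35.1 to 53685 CPM within WT_Con. The groups were also uneven, with a median of 21929 CPM in WT_Con against 643 in KI_Con, 330 in KI_Half, 123 in WT_Half and 43.7 in WT_Full. Pancreatic acinar markers reached 2490 CPM in WT_Con and 5024 CPM in KI_Con but at most 48.4 CPM in the ethanol groups, and 3 WT_Con and 2 KI_Con libraries held more than 10 CPM of the acinar gene Ctrb1. These are pieces of whole tissue, in which fewer cells of a type and less RNA per cell cannot be told apart.

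Levels were first compared within each complex, as CPM per kilobase of merged exons averaged over the 25 libraries. Complex I had the lowest median, at 86.3 CPM per kilobase over its 37 genes, followed by complex V at 102, complexes II and IV at 183 and complex III at 197. Divided by the longest transcript, complex I was again lowest at 115, followed by complex V at 175, IV at 241, III at 258 and II at 291. The highest complex I gene was Ndufa8, an accessory subunit, at 244 CPM per kilobase. Ndufb10, another accessory subunit, was next at 184 CPM per kilobase and came first, at 269 CPM per kilobase, when divided by its longest transcript. The row named Ndufb2 was lowest in complex I, at 1.06 CPM per kilobase. In complex II the membrane anchor Sdhd had 332 CPM per kilobase, the flavoprotein Sdha 208, the iron-sulphur subunit Sdhb 158 and the second anchor Sdhc 98.4. Complex III was the most even, from 264 CPM per kilobase for the Rieske iron-sulphur protein Uqcrfs1 to 121 for the core protein Uqcrc2. By longest transcript Uqcr10, a small subunit, came first at 302 CPM per kilobase.

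Complex IV spanned the widest range. Cox6a1 had 1606 CPM per kilobase, Cox8a 684 and Cox4i1 507, while the isoforms known from other tissues were low. Cox4i2, the isoform known from lung, stood at 1.11 CPM per kilobase against 507 for its common paralog Cox4i1, with group means between 0.73 and 1.07 CPM. Cox6b2, known from testis, stood at 5.15 CPM per kilobase against 455 for Cox6b1, with group means of 4.44 to 6.28 CPM. Cox7a1, the heart and muscle isoform, was the exception. Per kilobase it stood at 155 CPM against 177 for its common paralog Cox7a2, and its group means ran from 70.4 to 113 CPM. Cox7a1 also varied much, from 27.0 to 115 CPM among the 4 WT_Con libraries. Its coefficient of variation over the 25 libraries was 33.5%, below those of Cox4i2 (40.7%) and Atp5k (38.4%), where Ndufa9 had the lowest (8.34%). Ndufa4, named as a complex I gene and now placed in complex IV, and Cox7a2l, known as a supercomplex factor, were kept where their names put them. Whether Cox7a2l joins complexes III and IV in these mice was not examined.

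In complex V the α and β subunits of the catalytic head, Atp5a1 and Atp5b, stood at 578 and 528 CPM per kilobase. Divided by the longest transcript, Atp5b came first at 1168 CPM per kilobase and Atp5a1 stood at 677. Subunit c, which forms the rotor ring, is encoded by Atp5g1, Atp5g2 and Atp5g3. Per kilobase, Atp5g3 stood at 404 CPM, Atp5g2 at 102 and Atp5g1 at 59.7. The sources used here do not give how the authors' counting treated reads that match more than 1 gene. Levels of genes with near-identical copies, such as the Atp5g genes or the row for Ndufb4, which the annotation shares with Ndufb4b and Ndufb4c, are therefore uncertain. The row named Ndufb1 (GRCm38 chr12:101968090-101977068, minus strand) is called Ndufb1-ps in GENCODE M21, a noncoding gene at a bidirectional promoter. It was kept because its deposited symbol lacks that ending.

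**Figure D1:**
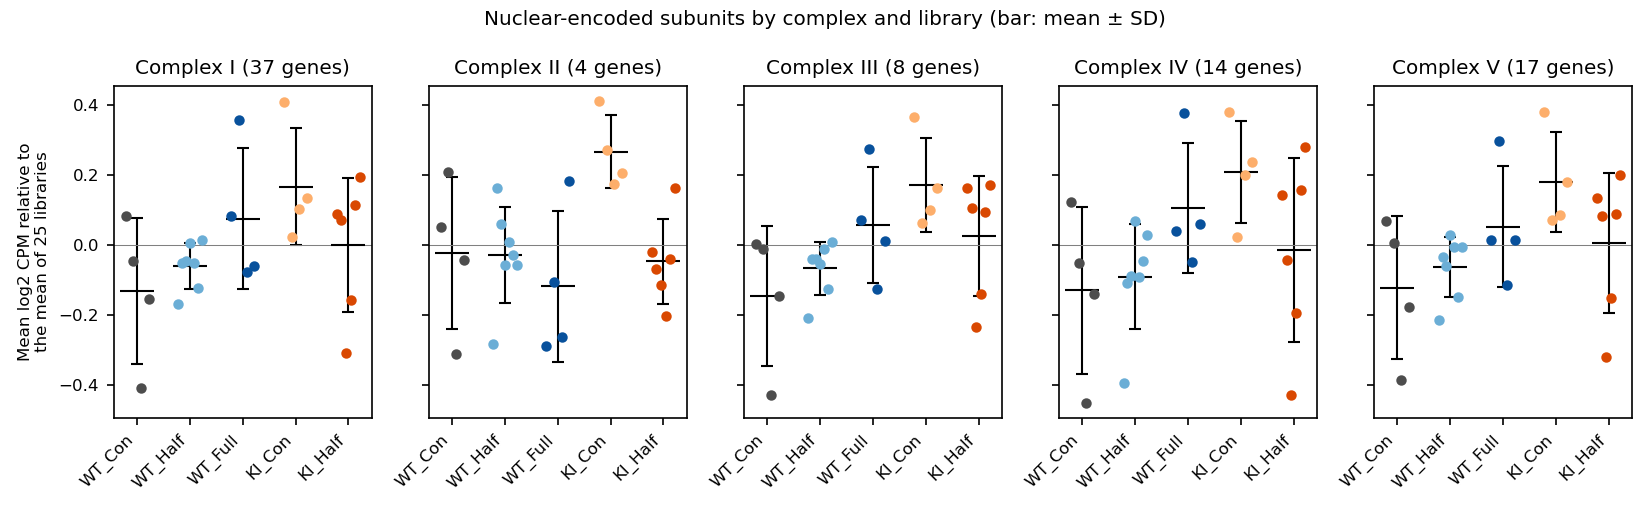
Mean log2 CPM of the subunits of each complex relative to the mean over the 25 libraries (vertical axis), by group (horizontal axis), with 1 point per library and the group mean ± SD. For complex II the KI_Con libraries lie between 0.17 and 0.41 and the KI_Half libraries between -0.20 and 0.16, while in complexes I, III, IV and V they overlap.

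The plot of relative level by complex shows the groups side by side. For each library the log2 CPM of a gene was taken relative to its mean over the 25 libraries and averaged over the genes of a complex. Over all 80 genes the WT_Con libraries ran from -0.41 to 0.08, WT_Half from -0.23 to 0.01, WT_Full from -0.10 to 0.31, KI_Con from 0.05 to 0.39 and KI_Half from -0.32 to 0.21. Each group overlapped with others, and the range within WT_Con was wider than the distance between any pair of group means. For complex II the KI groups were apart. Its 4 KI_Con libraries lay between 0.17 and 0.41 and the 6 KI_Half libraries between -0.20 and 0.16, with no overlap. The gap was narrow, at 0.174 against 0.163. The same measure over the 10 villus enterocyte markers was also apart, at 0.26 to 0.85 in KI_Con and -0.97 to 0.24 in KI_Half. Among single genes, 13.9% of all those tested were apart in this direction. In WT mice the complex II ranges did overlap, from -0.31 to 0.21 in WT_Con, -0.28 to 0.16 in WT_Half and -0.29 to 0.18 in WT_Full.

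Complexes I, III, IV and V moved together from library to library. Their relative levels correlated with the mean of all 80 genes at r = 0.99, 0.98, 0.97 and 0.99 over the 25 libraries. Complex II, which has 4 genes, correlated at r = 0.60. These values share the libraries and their normalisation, and complex I alone supplies 37 of the 80 genes. With the group means removed, a typical gene still followed the other 79. The median r was 0.86 for complex I, 0.85 for complex III, 0.87 for complex IV, 0.80 for complex V and 0.56 for complex II. The small subunits Ndufs6 (r = 0.97), Atp5j2 (r = 0.95) and Atp5md (r = 0.95) were among the genes that followed the rest most closely. The genes that followed least included some for large catalytic or core subunits. Uqcrc2 had r = -0.15, Atp5b 0.03, Atp5a1 0.20, Sdha 0.21, Ndufs1 0.23 and Uqcrc1 0.23. They also included Cox4i2 (r = 0.18), with a mean of 0.88 CPM, and Cox7a2l (r = 0.19). Other core subunits followed closely, such as Ndufv2 (r = 0.89), Ndufs7 (r = 0.85) and Ndufs3 (r = 0.84). The subunits encoded by mitochondrial DNA, measured by 13 genes, correlated with the 80 nuclear genes at r = 0.15.

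**Figure D2:**
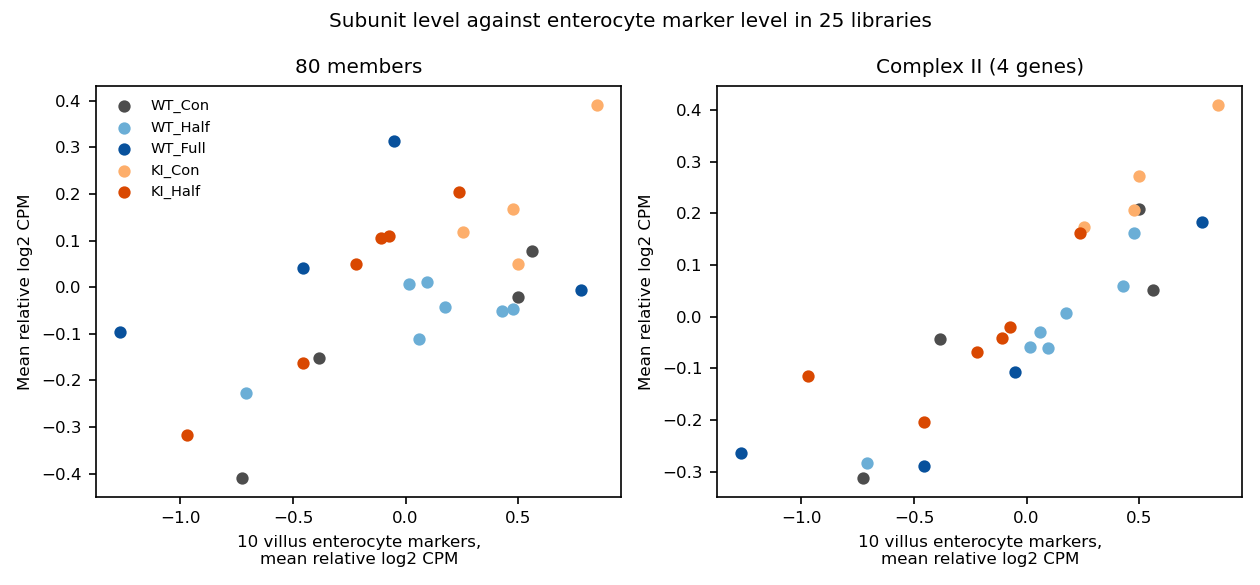
Mean relative log2 CPM of the 80 subunit genes, and of the 4 complex II genes, against that of 10 villus enterocyte markers, with 1 point per library coloured by group. Libraries with more enterocyte marker RNA tend to sit higher, with r = 0.61 over the 25 libraries for the 80 genes.

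The nuclear subunits also followed the absorptive enterocyte markers. Over the 25 libraries r was 0.61 between the mean of the 80 genes and the mean of the 10 villus enterocyte markers, and 0.69 after group means were removed. The plot of subunit level against enterocyte marker level shows this for all members and for complex II. Both axes come from the same libraries and share their normalisation.

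The 2.5% ethanol regime was compared with the control diet in KI mice (KI_Half vs KI_Con), to ask what the ethanol regime does to these genes when Aldh2 is altered. This was the only comparison in which a member passed the threshold, an adjusted p under 0.05 in edgeR's quasi-likelihood test with Benjamini-Hochberg adjustment over all genes tested. There, 8 of the 80 genes fell and 0 rose. The 8 are Sdha and Sdhb of complex II, Uqcrfs1 of complex III, Ndufs1, Ndufb3 and Ndufb9 of complex I, Cox7a2l of complex IV and Atp5o of complex V. In the same comparison 37.9% of all 16944 genes were called, 17.9% lower and 20% higher. The 10% of members called lower is thus less than the share of all genes called lower, and the falls were small, between 0.33 and 0.42 on the log2 scale. Most members nonetheless lay below 0. The log2 difference was negative for 68 of 80 members (49.8% of all genes), with a median of -0.18 against 0.00 over all genes. Without KI_Con replicate 1 the median was -0.10 with 23 positive, and Ndufc2 was called higher at 0.30 ± 0.10 (SE) (adjusted p = 0.0467, with 16.6% of all genes called higher). Medians by complex were -0.17 for complex I, -0.31 for II, -0.12 for III, -0.20 for IV and -0.20 for V. At an unadjusted p under 0.05, 16 members were lower (22.8% of all genes).

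Complex II was the complex in which the falls took the largest share of members. Sdha (GRCm38 chr13:74322254-74350280, minus strand) encodes the flavoprotein that oxidises succinate. Its level was 1111, 1109, 1003 and 971 CPM in the 4 KI_Con libraries and 713 to 967 with a median of 778 CPM in the 6 KI_Half libraries. The groups did not overlap, and Sdha fell by 0.38 ± 0.10 (SE) on the log2 scale (adjusted p = 0.0145). Sdhb (chr4:140961203-140979193, plus strand) encodes the iron-sulphur subunit that carries the electrons on to ubiquinone. KI_Con libraries held 477, 447, 407 and 441 CPM of it and KI_Half libraries 280.0 to 374 with a median of 330.2 CPM. Again no KI_Half library reached the lowest KI_Con library, and Sdhb fell by 0.41 ± 0.10 (SE) (adjusted p = 0.00873). The membrane anchors had smaller differences that did not pass, with Sdhc at -0.24 ± 0.10 (SE) (adjusted p = 0.072) and Sdhd at -0.18 ± 0.10 (SE) (adjusted p = 0.168).

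In complex III, Uqcrfs1 (chr13:30540308-30545362, minus strand) encodes the Rieske protein that accepts electrons from ubiquinol. It had 493.2, 452, 426 and 428 CPM in KI_Con and 298 to 386 with a median of 345 CPM in KI_Half. All KI_Half values were below all KI_Con values, and Uqcrfs1 fell by 0.38 ± 0.09 (SE) (adjusted p = 0.00869). The core proteins did not pass, with log2 differences of -0.19 ± 0.09 (SE) for Uqcrc1 and -0.07 ± 0.08 (SE) for Uqcrc2. The small subunits ranged from -0.22 for Uqcrh to 0.03 for Uqcr10.

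The DNA before the first exon is shown for the called genes of complexes II and III, Sdha, Sdhb and Uqcrfs1. The mouse RefSeq windows (GRCm38.p6) run from 250 bases before to 50 bases after an annotated start, and 67 of the 80 members have one. The part upstream of the annotated gene is printed here, 5′ to 3′ on the gene's strand, at chr13:74350281-74350480 for Sdha (minus strand), chr4:140961021-140961202 for Sdhb (plus strand) and chr13:30545363-30545562 for Uqcrfs1 (minus strand). Capitals mark matches to the motif of NRF1, a regulator of nuclear genes for mitochondrial proteins.
Sdha: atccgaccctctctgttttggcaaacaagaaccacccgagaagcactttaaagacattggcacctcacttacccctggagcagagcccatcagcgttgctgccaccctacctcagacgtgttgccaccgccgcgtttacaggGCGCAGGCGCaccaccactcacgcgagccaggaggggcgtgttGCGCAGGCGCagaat
Sdhb: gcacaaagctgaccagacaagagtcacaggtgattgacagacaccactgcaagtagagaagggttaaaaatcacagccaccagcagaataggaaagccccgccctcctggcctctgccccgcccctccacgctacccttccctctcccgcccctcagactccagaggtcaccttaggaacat
Uqcrfs1: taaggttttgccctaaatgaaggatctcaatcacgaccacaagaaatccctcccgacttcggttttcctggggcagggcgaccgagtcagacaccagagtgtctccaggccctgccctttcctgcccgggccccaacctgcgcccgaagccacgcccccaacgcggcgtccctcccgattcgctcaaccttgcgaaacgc
The motif was searched as GCGC, any base, then TGCGC, on both strands, where the reverse reads GCGCA, any base, GCGC. It was in the windows of 17 of 67 members (25.4%) and of 5.19% of the 27025 genes with a window. The motif is rich in G and C, and the members' windows had a median GC content of 58.0%, against 52.7% over all windows. Sdha held 2 matches in the printed stretch, and of the other called genes with a window Atp5o held a match while Sdhb, Uqcrfs1, Ndufb3 and Cox7a2l held none. By complex, the NRF1 motif was in 7 of 33 windows for complex I, 2 of 3 for II, 1 of 5 for III, 1 of 11 for IV and 6 of 15 for V. AAGATGGC, a motif of YY1, was in 10 members (14.9%, against 3.19% of all genes). CCGGAAGT, a motif of GABP, was in 5 members (7.46% against 4.31%). TCAAGGTCA, a motif of oestrogen-related receptors, was in 2 members (2.99% against 0.466%). At least 1 of the 4 motifs was in 30 of 67 members. A match describes the letters only and shows no binding.

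The complex I genes that fell were Ndufs1, Ndufb3 and Ndufb9. Ndufs1 (chr1:63143596-63176833, minus strand) encodes an iron-sulphur subunit of the arm that oxidises NADH. Its KI_Con libraries had 164, 173, 149 and 150.4 CPM and its KI_Half libraries 102 to 143 with a median of 125 CPM. The groups were apart, and Ndufs1 fell by 0.34 ± 0.10 (SE) (adjusted p = 0.0181). Ndufb3 (chr1:58586384-58595964, plus strand) and Ndufb9 (chr15:58933756-58939488, plus strand) encode accessory subunits of the membrane arm. Ndufb3 had 153, 114, 125 and 128 CPM in KI_Con and 69.4 to 115 with a median of 97.9 CPM in KI_Half. The highest KI_Half library passed the lowest KI_Con library by little, and Ndufb3 fell by 0.42 ± 0.14 (SE) (adjusted p = 0.0295). Ndufb9 had 72.3, 51.4, 57.0 and 62.6 CPM in KI_Con and 35.3 to 53.5 with a median of 47.2 CPM in KI_Half. Here too the ranges overlapped by little, and Ndufb9 fell by 0.40 ± 0.13 (SE) (adjusted p = 0.0316). Of the other 34 genes of complex I none passed. Ndufa1, an accessory subunit, came nearest at -0.42 ± 0.17 (SE) (adjusted p = 0.0696), and Ndufc2 was highest at 0.20 ± 0.11 (SE) (adjusted p = 0.168).

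In complex IV the gene that fell was Cox7a2l (chr17:83501918-83517330, minus strand), the supercomplex factor. It had 110.2, 129, 118 and 114 CPM in KI_Con and 77.6 to 105 with a median of 88.1 CPM in KI_Half. No values overlapped, and Cox7a2l fell by 0.36 ± 0.10 (SE) (adjusted p = 0.0139). The catalytic core of this complex is encoded by mitochondrial DNA, and of the nuclear genes around it Cox5a came next at -0.30 ± 0.12 (SE) (adjusted p = 0.0672). Cox7a1 and Cox4i2 had larger differences with larger errors, at -0.51 ± 0.26 (SE) (adjusted p = 0.134) and -0.52 ± 0.46 (SE) (adjusted p = 0.397). Cox6b2 stood on the other side at 0.38 ± 0.25 (SE) (adjusted p = 0.25), and Ndufa4 at 0.13 ± 0.11 (SE).

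In complex V the gene that fell was Atp5o (chr16:91925214-91931687, minus strand), whose protein ties the catalytic head to the peripheral stalk. Its levels were 61.3, 51.8, 46.6 and 53.4 CPM in KI_Con and 34.9 to 46.0 with a median of 45.4 CPM in KI_Half. The gap between the groups was narrow, and Atp5o fell by 0.33 ± 0.12 (SE) (adjusted p = 0.0462). The head subunits Atp5a1 and Atp5b also did not overlap between the groups, with differences of -0.24 ± 0.09 (SE) (adjusted p = 0.0554) and -0.21 ± 0.09 (SE) (adjusted p = 0.09). Including these, 9 members had all KI_Half libraries below all KI_Con libraries (13.9% of all genes), the last being Ndufa9. The subunit c genes went different ways without passing, at 0.21 for Atp5g1, 0.13 for Atp5g2 and -0.24 for Atp5g3.

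**Figure D3:**
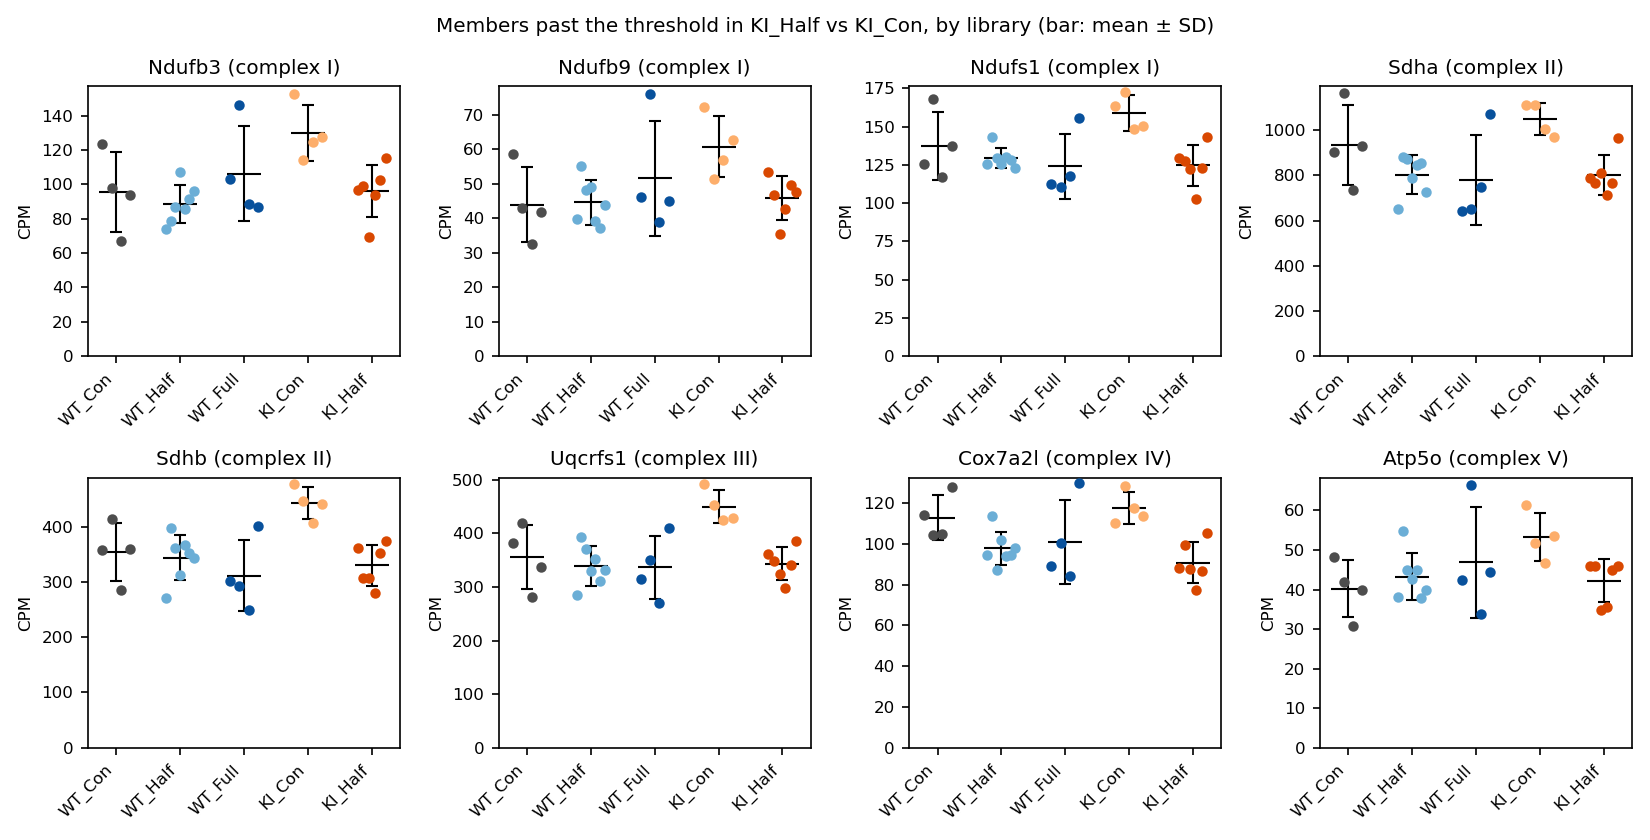
CPM of the 8 genes that fell in KI_Half vs KI_Con, with 1 panel per gene, 1 point per library and the mean ± SD of each group. KI_Con has the highest mean in every panel, and KI_Half has the lowest mean of all groups for Cox7a2l. The genes were picked by being lower in KI_Half than in KI_Con.

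The plot of the 8 genes by library shows all 5 groups. The same genes were not called in WT mice on 2.5% ethanol (WT_Half vs WT_Con), where their log2 differences were -0.21 for Sdha, -0.04 for Sdhb, -0.06 for Uqcrfs1, -0.08 for Ndufs1, -0.11 for Ndufb3, 0.02 for Ndufb9, -0.20 for Cox7a2l and 0.11 for Atp5o. KI_Con had the highest mean of the 5 groups for each of them. The 8 were picked by being lower in KI_Half than in KI_Con, so this is in part fixed by the choice. KI_Con was also highest over all 80 members, with a mean relative log2 CPM of 0.18, and WT_Full was next at 0.06. On the control diet, KI libraries differed from WT libraries by 0.16 for Sdha, 0.31 for Sdhb, 0.33 for Uqcrfs1, 0.20 for Ndufs1, 0.43 for Ndufb3, 0.46 for Ndufb9, 0.05 for Cox7a2l and 0.39 for Atp5o, none of them called. That comparison and KI_Half vs KI_Con share the KI_Con libraries. The KI_Half mean lay within the range of the 3 WT group means for 7 of the 8 genes and below it for Cox7a2l. Sdhb had 354 ± 52.3 (SD, n = 4) CPM in WT_Con, 343 ± 40.7 (SD, n = 7) in WT_Half, 311 ± 64.6 (SD, n = 4) in WT_Full, 443 ± 28.7 (SD, n = 4) in KI_Con and 330.2 ± 37.2 (SD, n = 6) in KI_Half. For Uqcrfs1 the means were 355 ± 59.8 (SD, n = 4), 339 ± 36.5 (SD, n = 7), 337 ± 59.3 (SD, n = 4), 450.0 ± 31.1 (SD, n = 4) and 344 ± 30.5 (SD, n = 6) CPM in the same order.

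Sdha, Sdhb, Uqcrfs1 and Cox7a2l stayed under the threshold when any 1 of the 10 libraries was left out. Ndufs1 did so in 9 of 10 fits, Ndufb3 and Ndufb9 in 4 and Atp5o in 2. The number of members called ran from 5 (without KI_Con replicate 4, KI_Half replicate 2 or KI_Half replicate 5) to 18 (without KI_Half replicate 7). DESeq2 called 11 lower (20% of all genes), limma with sample weights 17 (23.4%), and a fit with the mean level of smooth muscle markers as a covariate 20 (20.7%). With the 2 KI_Con libraries rich in acinar RNA left out, 0 were called (15.1% of all genes), 19 of 80 were positive and the median was -0.14.

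Villus enterocyte markers fell in the same comparison. Of 10 markers, 6 were lower (17.9% of all genes) and 0 higher (20% of all genes). Their summed level was 32383 to 47368 CPM in KI_Con and 17304 to 35142 CPM in KI_Half. Fabp2, the intestinal fatty acid binding protein, went from 3280.0 ± 542 (SD, n = 4) to 1419 ± 309 (SD, n = 6) CPM, a fall of 1.20 ± 0.18 (SE) on the log2 scale (adjusted p = 0.0009). Vil1, the brush border protein villin, fell by 0.55 ± 0.11 (SE) (adjusted p = 0.00382). With the mean of these markers as a covariate, a fit added after the data were seen, 0 members were called (3.87% of all genes), 68 of 80 differences were positive and their median was 0.22. In that fit Sdha stood at -0.23 ± 0.14 (SE), Sdhb at -0.17 ± 0.12 (SE), Uqcrfs1 at -0.17 ± 0.11 (SE) and Ndufs1 at -0.17 ± 0.13 (SE). Cox7a2l stood at -0.25 ± 0.14 (SE), Ndufb9 at -0.02 ± 0.14 (SE), Ndufb3 at 0.02 ± 0.12 (SE) and Atp5o at 0.04 ± 0.12 (SE). The mean relative log2 CPM of the markers ran from 0.26 to 0.85 in KI_Con and from -0.97 to 0.24 in KI_Half. These ranges do not overlap, so the fit cannot separate marker level from group. The part of enterocyte content in the falls was therefore not tested.

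Markers of other cell types were read beside the same shares of all genes, 17.9% called lower and 20% higher. Crypt and cycling cell markers were higher for 4 of 8 and lower for 1, with summed levels of 215 to 357 CPM in KI_Con and 409 to 519.7 CPM in KI_Half. T cell markers were lower for 6 of 6 (179 to 233 CPM in KI_Con, 25.5 to 132 CPM in KI_Half), and acinar markers for 10 of 10 (9.60 to 5024 CPM and 6.22 to 13.5 CPM). Lower calls were also made for 3 of 4 B and plasma cell markers and 3 of 5 fibroblast markers. For smooth muscle 3 of 10 were lower and for striated muscle 1 of 5, while goblet and Paneth cell markers split into 2 higher and 2 lower of 8. The counts for these last 3 lists are close to the shares over all genes. No call was made among 3 Brunner gland, 5 adipocyte and 5 hepatocyte markers. No T cell, acinar or crypt marker was at 0 in a KI library. The part of these cell types in the subunit differences was not tested.

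Other mitochondrial genes of lists chosen with earlier results known were read in the same comparison, in which, as above, 20% of all genes were higher and 17.9% lower. Among 17 enzymes of the citric acid cycle, which feeds NADH and succinate to the chain, 5 fell and 0 rose. Ogdh, a subunit of the 2-oxoglutarate dehydrogenase complex, went from 1718 ± 75.6 (SD, n = 4) to 724 ± 156 (SD, n = 6) CPM, a fall of 1.23 ± 0.15 (SE) (adjusted p = 0.000416). Sucla2, a subunit of the ADP-forming succinyl-CoA ligase, fell by 0.60 ± 0.08 (SE) (adjusted p = 0.000618). The others included Dlst (-0.40) and Mdh2 (-0.47). The list's median was -0.01.

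Assembly factors build the complexes without staying in them. Of 43 measured, 10 rose (20% of all genes) and 2 fell (17.9% of all genes), and the median was 0.02. The rises were close to the share over all genes, and the falls were below it. Tmem70, needed for complex V, rose from 26.6 ± 2.28 (SD, n = 4) to 41.8 ± 3.77 (SD, n = 6) CPM, by 0.66 ± 0.10 (SE) (adjusted p = 0.000767). Cox18, which inserts a mitochondrially encoded complex IV subunit into the membrane, rose by 0.89 ± 0.16 (SE) (adjusted p = 0.00169). Those that fell were Uqcc3 (-0.34), a complex III factor, and Tmem126b (-0.57), a complex I factor. Among 17 genes for electron carriers and ubiquinone synthesis, 3 rose and 2 fell. Neither count exceeded the share over all genes. Pdss2, which helps to make the ubiquinone side chain, rose by 0.81 ± 0.11 (SE) (adjusted p = 0.000585), and Coq3 by 0.43 ± 0.12 (SE) (adjusted p = 0.014). Cyc1, the cytochrome c1 of complex III, and Cycs, the cytochrome c that carries electrons on to complex IV, were at -0.07 and -0.18 and did not pass.

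Of 13 regulators of mitochondrial biogenesis, 5 rose (20% of all genes) and 2 fell (17.9% of all genes). The coactivator Ppargc1b rose by 0.48 ± 0.09 (SE) (adjusted p = 0.00244) and its relative Pprc1 by 1.27 ± 0.27 (SE) (adjusted p = 0.0042). Ppargc1a, the coactivator best known for raising respiratory genes, went from 49.7 ± 2.77 (SD, n = 4) to 28.9 ± 8.05 (SD, n = 6) CPM, a fall of 0.77 ± 0.20 (SE) (adjusted p = 0.0118). Its partner Esrra fell by 0.36 ± 0.12 (SE) (adjusted p = 0.0382). Tfam, Tfb2m and Polrmt, which serve mitochondrial DNA and its transcription, rose by 0.33, 0.51 and 0.38. Nrf1 was at 0.24 ± 0.12 (SE) (adjusted p = 0.115). None of the 13 subunits encoded by mitochondrial DNA was called, with a median of 0.09 and a smallest adjusted p of 0.0958 for mt-Nd6. Most of these RNAs carry short poly(A) tails. The libraries were made from poly(A)-selected RNA, and how well this captured each of them, mt-Nd6 included, was not tested. Atpif1, the inhibitor of complex V, had 142 ± 18.2 (SD, n = 4) CPM in KI_Con and 122 ± 14.0 (SD, n = 6) CPM in KI_Half (-0.22 ± 0.11 (SE), adjusted p = 0.156). Its level followed the 80 genes over the 25 libraries at r = 0.89.

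On the control diet, KI was compared with WT (KI_Con vs WT_Con) to ask whether the KI line without ethanol has another level. This sets the KI line beside the WT mice and does not isolate the allele. Every one of the 80 log2 differences was positive (46.9% of all genes), with a median of 0.28 against -0.02 over all genes. No member was called, and neither was any other of the 16813 genes tested (0% called). At an unadjusted p under 0.05, 27 members were higher (4.03% of all genes) and 0 lower. DESeq2 called 0 members and 0.065% of all genes, and limma 0 members and 0.0119%. In 8 members every KI_Con library lay above every WT_Con library (2.97% of all genes). They included the noncoding row named Ndufb1, Ndufc1 of complex I, Uqcrc1 and Uqcrfs1 of complex III, Cox6c and Cox7a2 of complex IV and Atp5d of complex V. Since the members move together from library to library, the 80 directions are not 80 separate observations.

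The 3 genes with the smallest p, from complexes III, IV and V, show the size of the difference. Uqcrc1, a core protein of complex III, had 602, 724, 532 and 656 CPM in WT_Con and 865, 778, 765 and 821 CPM in KI_Con. The groups did not overlap, and the log2 difference was 0.35 ± 0.12 (SE) (adjusted p = 0.502). Atp5d, the δ subunit of the central stalk, had 389.9, 403, 319.7 and 379 CPM in WT_Con and 559, 414, 454 and 534 CPM in KI_Con. Its lowest KI_Con library was just above its highest WT_Con library, and the difference was 0.38 ± 0.13 (SE) (adjusted p = 0.502). Cox5a had 159, 172, 137 and 132 CPM in WT_Con and 231, 170.3, 187 and 193 CPM in KI_Con. Here 1 KI_Con library lay below the highest WT_Con library, and the difference was 0.37 ± 0.13 (SE) (adjusted p = 0.502). The median over members stayed between 0.20 and 0.36 when any 1 library was left out, with 77 to 80 positive. The count of members higher at an unadjusted p under 0.05 ran from 4 (without KI_Con replicate 1) to 52 (without WT_Con replicate 1). The 10 enterocyte markers were also all positive, with a median of 0.39 and 0 called, and their summed level was 19385 to 41478 CPM in WT_Con. With these markers as a covariate 71 members were positive and the median was 0.11. With the Brunner gland markers as a covariate 78 were positive, the median was 0.24 and 9 were higher at an unadjusted p under 0.05. Without the acinar-rich control libraries, which leaves 1 WT_Con library, 61 were positive and the median was 0.16.

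**Figure D4:**
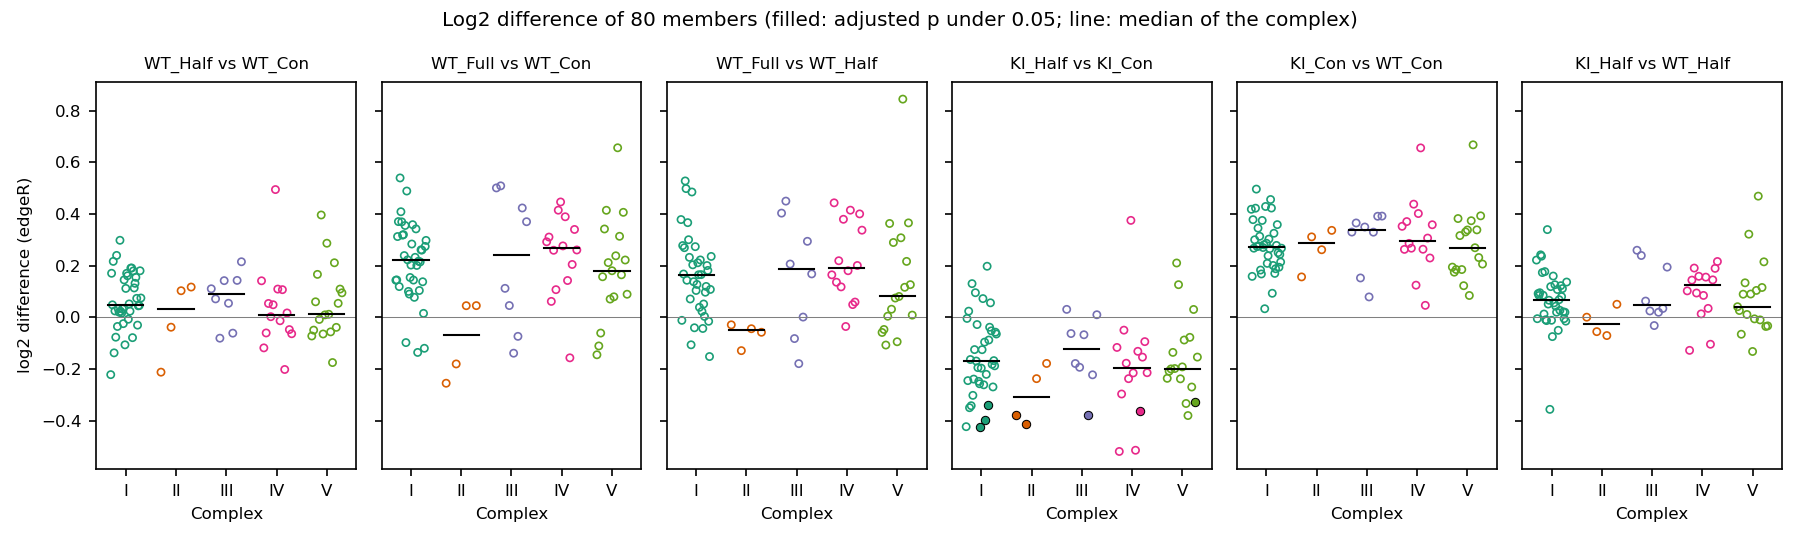
Log2 difference of each subunit gene in the 6 pairwise comparisons, arranged by complex, with 1 point per gene, a line at the median and filled points for an adjusted p under 0.05. All 80 points are above 0 in KI_Con vs WT_Con, and the 8 filled points are all in KI_Half vs KI_Con.

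The same regime was compared with the control diet in WT mice (WT_Half vs WT_Con), the matched contrast in the unaltered genotype. No member was called, against 1.47% of the 16993 genes tested, 54 of 80 were positive (49.9% of all genes) and the median was 0.05. At an unadjusted p under 0.05, 3 members were higher (10.4% of all genes) and 0 lower. DESeq2 called 2 members (7.98% of all genes) and limma 1 (7.25%). The smallest p belonged to Atp5g1, 1 of the subunit c genes (GRCm38 chr11:96068852-96075670, minus strand). It had 215, 282, 215 and 236 CPM in WT_Con and 283 to 338 with a median of 309 CPM in WT_Half. It was the only member whose groups did not overlap (3.1% of all genes are as far apart in this direction), and the log2 difference was 0.40 ± 0.10 (SE) (adjusted p = 0.067). Ndufa8 followed at 0.30 ± 0.10 (SE) (adjusted p = 0.129) and Cox6b2 at 0.49 ± 0.19 (SE) (adjusted p = 0.164). On the lower side stood Cox7a2l at -0.20 ± 0.10 (SE), Sdha at -0.21 ± 0.14 (SE) and Ndufa1 at -0.22 ± 0.18 (SE), none of them called. The sign of the median changed with 1 library. It was -0.05 with 32 positive without WT_Con replicate 3, and the highest value with 1 library left out was 0.14, without WT_Con replicate 1. It was also below 0, at -0.02 with 31 positive, without the acinar-rich control libraries, and 0.01 with 44 positive with the Brunner gland markers as a covariate. The share of all genes called ran from 0.124% (without WT_Con replicate 1) to 2.63% (without WT_Half replicate 6).

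Whether 2.5% ethanol moved these genes differently in the 2 genotypes was tested directly, as the interaction of genotype and diet over 21 libraries. The interaction was negative for 78 of 80 members (49% of all genes), with a median of -0.22 against 0.01 over all genes, and 0 members and 0% of the 17006 genes passed. At an unadjusted p under 0.05, 7 members were lower (6.09% of all genes). DESeq2 called 0 members (0.212% of all genes) and limma 0 (6.69%). The smallest p were those of Uqcrc1 at -0.33 ± 0.14 (SE) (adjusted p = 0.351), Atp5o at -0.43 ± 0.18 (SE) (adjusted p = 0.354) and Sdhb at -0.37 ± 0.16 (SE) (adjusted p = 0.356). The positive members were Atp5g2 at 0.19 ± 0.17 (SE) and Ndufc2 at 0.01 ± 0.17 (SE). The falls in KI mice were thus not shown to differ from the differences in WT mice for any single gene. The median was -0.13 without WT_Con replicate 3 and -0.15 without KI_Con replicate 1. It was -0.09 with 29 positive without the acinar-rich control libraries, and 0.03 with 47 positive with the enterocyte covariate.

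The 5% ethanol regime was compared with the control diet in WT mice (WT_Full vs WT_Con). No member was called, and 0.00592% of the 16882 genes tested, a single gene, was. Without WT_Full replicate 4, 12.2% of all genes and 1 member were called, Ndufb6 of complex I at 0.46 ± 0.12 (SE) (adjusted p = 0.0439). Most members lay above 0, with 69 of 80 positive (49.9% of all genes) and a median of 0.22 against 0.00. Complex II had a median of -0.07, where complex I had 0.22, III 0.24, IV 0.27 and V 0.18. At an unadjusted p under 0.05, 6 members were higher (9.94% of all genes). DESeq2 called 0 members (5.52% of all genes) and limma 0 (8.35%). For Ndufa8 the 4 WT_Con libraries had 200.1, 187, 149 and 176 CPM and the 4 WT_Full libraries 238, 245, 222 and 201 CPM. Ndufa8 and Ndufa12 were the 2 members whose groups did not overlap (4.22% of all genes). Atp5g1 was at 0.41 ± 0.16 (SE) (adjusted p = 0.235), the small complex III subunit Uqcr11 at 0.51 ± 0.20 (SE) (adjusted p = 0.249) and Ndufa8 at 0.36 ± 0.14 (SE) (adjusted p = 0.253). Below 0 stood Sdha at -0.25 ± 0.22 (SE), Sdhb at -0.18 ± 0.18 (SE) and Cox7a2l at -0.16 ± 0.16 (SE). In the authors' deposited table for this comparison 3 members had an adjusted p under 0.05, all higher (5.82% of its genes). In the authors' deposited table the log2 difference was 0.35 for Ndufa8 (adjusted p = 0.0275), 0.40 for Atp5g1 (adjusted p = 0.0314) and 0.36 for Ndufa12 (adjusted p = 0.0379). The members' median moved to 0.11 on leaving out WT_Full replicate 2. Leaving out WT_Con replicate 3 gave 0.12, and leaving out WT_Con replicate 1 gave 0.33. With the Brunner gland markers as a covariate 63 were positive, the median was 0.17 and 0 had an unadjusted p under 0.05.

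Dose was compared in WT mice (WT_Full vs WT_Half). The median over members was 0.14 against 0.02 over all genes, 63 of 80 were positive (54.7% of all genes), and 0 members and 0% of the 16967 genes passed. At an unadjusted p under 0.05, 14 members were higher (2.56% of all genes) and 0 lower, and the groups were apart in 0 members (0.218% of all genes). DESeq2 called 0 members (0.053% of all genes) and limma 0 (0.0118%). The largest difference was that of Atp5k, subunit e of complex V, which helps ATP synthase to form dimers. WT_Half libraries held 52.2 to 77.3 with a median of 60.6 CPM of it and WT_Full libraries 115, 182, 82.3 and 65.3 CPM. WT_Full replicate 2 was far above the rest, and the difference was 0.84 ± 0.23 (SE) (adjusted p = 1). Uqcr11 stood at 0.45 ± 0.15 (SE) and the complex I accessory subunit Ndufa6 at 0.30 ± 0.10 (SE), while Uqcrc2 was at -0.18 ± 0.13 (SE), Ndufv1, which binds NADH, at -0.15 ± 0.11 (SE) and Ndufa9 at -0.11 ± 0.09 (SE). All 4 complex II genes were below 0. Much of the shift over all members rests on WT_Full replicate 2, without which 46 were positive and the median was 0.01. Smooth muscle markers were also higher in log2 difference, 10 of 10 above 0 with a median of 0.52 and 0 called. Their summed level was 1813 to 4312 CPM in WT_Half and 2278 to 5983 CPM in WT_Full, where WT_Full replicate 2 held the most. With these markers as a covariate 54 members were positive, the median was 0.06 and 3 had an unadjusted p under 0.05.

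Genotype was compared on 2.5% ethanol (KI_Half vs WT_Half). Of the 80 members 60 were positive (46.9% of all genes), the median was 0.07 against -0.02 over all genes, and 0 members and 0% of the 16907 genes passed. At an unadjusted p under 0.05, 3 members were higher (7.07% of all genes) and 0 lower, and the groups were apart in 0 members (0.118% of all genes). DESeq2 called 0 members (1.01% of all genes) and limma 1 (5.23%). The authors' deposited table for this comparison called 0 members and 1.24% of its genes. WT_Half libraries held 137 to 171 with a median of 147 CPM of Atp5g2 and KI_Half libraries 143 to 218 with a median of 192 CPM. The ranges overlapped, and the difference was 0.32 ± 0.10 (SE) (adjusted p = 0.273). Atp5k was at 0.47 ± 0.18 (SE) (adjusted p = 0.308) and the row named Ndufb1 at 0.34 ± 0.14 (SE) (adjusted p = 0.319). On the lower side stood Ndufb2 at -0.36 ± 0.17 (SE), Cox7a2l at -0.10 ± 0.09 (SE) and Ndufb5 at -0.07 ± 0.09 (SE). Without KI_Half replicate 7 the median was 0.02 with 46 positive, without WT_Half replicate 1 0.04 with 56, without KI_Half replicate 5 0.11 with 71, and without KI_Half replicate 3 0.13 with 69 and 19 at an unadjusted p under 0.05. With the enterocyte covariate 76 were positive, the median was 0.16, 38 had an unadjusted p under 0.05 and 0 were called.

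The plot of log2 differences by complex and comparison sets the 6 pairwise comparisons side by side. WT_Con enters 3 of them and each other group at least 2, so they are not independent of one another. In the other mitochondrial lists, calls outside KI_Half vs KI_Con were limited to Pdss2 in WT_Half vs WT_Con, at 0.75 ± 0.14 (SE) (adjusted p = 0.0295).

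**Figure D5:**
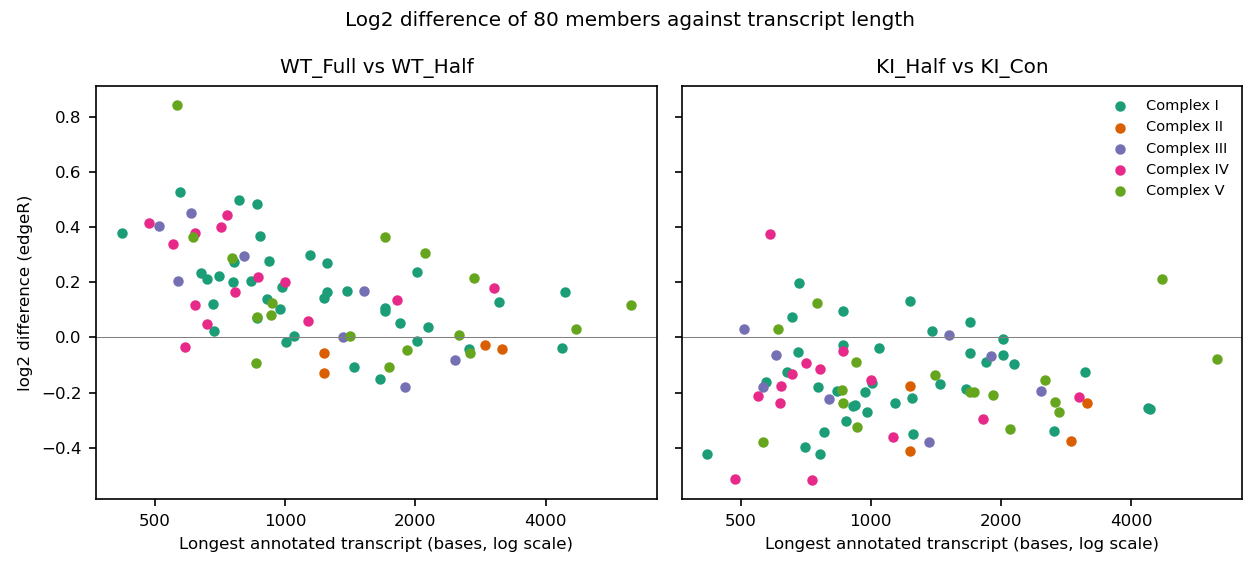
Log2 difference of each subunit gene against the length of its longest annotated transcript in bases (log scale), for WT_Full vs WT_Half and KI_Half vs KI_Con, coloured by complex. Shorter transcripts lie higher in the first (r = -0.51) and show no trend in the second (r = 0.00).

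The members differ in length as well as in role. The longest annotated transcript was under 1000 bases for 39 members and 1500 bases or more for 27. Across the 80 genes, the log2 difference of WT_Full vs WT_Half correlated with log2 transcript length at r = -0.51, as the plot of difference against length shows. The median was 0.22 for the 39 shorter members and 0.04 for the 27 longer ones. For WT_Full vs WT_Con r was -0.40, for KI_Half vs WT_Half -0.48 and for KI_Con vs WT_Con -0.32. It was 0.16 for WT_Half vs WT_Con and 0.00 for KI_Half vs KI_Con. Genes outside the list with an average log2 CPM of 5 or more were read beside them. In the same order, their r was -0.14, -0.06, -0.10, -0.09, -0.04 and -0.01. Among those other genes the short ones lay higher in each pairwise comparison. In WT_Full vs WT_Half their median was 0.16 under 1000 bases and 0.03 from 1500 bases on, in WT_Full vs WT_Con 0.33 and 0.01 (members 0.26 and 0.14), and in KI_Half vs WT_Half 0.12 and 0.00 (members 0.10 and 0.03). The medians of the other genes were 0.16 and 0.01 in KI_Half vs KI_Con (members -0.18 and -0.19). They were 0.15 and 0.01 in WT_Half vs WT_Con (members 0.03 and 0.08), and 0.13 and 0.03 in KI_Con vs WT_Con (members 0.33 and 0.24). Genes are not independent replicates, and these values are descriptions. Length and subunit role overlap only in part. The catalytic or core subunits Sdha, Ndufs1, Uqcrc2, Atp5a1 and Atp5b have longest transcripts of 1896 bases or more. The core subunits Ndufs7 (983), Ndufs8 (1005) and Ndufs3 (1046) have shorter ones. The small or accessory subunits Atp5l (6310), Ndufb7 (4435) and Cox6c (3038) have long ones. The parts of length, role and complex in these differences were not tested.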

How the data were processed

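The submitters' processing notes name HISAT2 and SAMtools for alignment to GRCm38, FastQC and Trimmomatic for read quality, featureCounts for counting and DESeq2 for testing. The sources used here give no versions, strand setting or annotation release. The authors' deposited counts are whole reads per gene. The deposited log2 fold changes and p-values are the authors' DESeq2 results, per the file headers, and the deposited signal (mean normalised count) and score columns were not used.

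Groups were compared with edgeR 4.0.16 in R 4.3.3 (TMM scaling, filterByExpr, quasi-likelihood F test on the libraries compared, Benjamini-Hochberg adjustment over all genes tested), after the steps had been tested on simulated data. Called means an adjusted p under 0.05. CPM use TMM over all 25 libraries, and relative levels a prior count of 2. Lengths and gene coordinates are from GENCODE M21. No libraries of a group agreed within sampling noise (chi-square per gene of at least 30.7). Totals of 24580461 to 44846281 counts per library make counting error small for all but the lowest members.

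Members, lists and tests were chosen with earlier results of these data known. Members named are all those called, or 3 in each direction by smallest p where fewer than 3 pass, plus the highest of each complex, the tissue isoforms, the subunit c genes, Atpif1, Ndufa4 and Cox7a2l. Of other lists the 2 genes with the smallest p are named, and further genes were chosen after their values were seen. Single genes within some counts are not reported here. Alternatives were DESeq2 1.42.0, limma 3.58.1 with sample weights, 1 fit of all 25 libraries, RLE scaling, no filter, covariates for Brunner gland, smooth muscle and, added after the data were seen, villus enterocytes, omission of control libraries above 10 CPM of Ctrb1, a replicate block and omission of each single library. Same-numbered libraries were not shown to be paired.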

Additional observations from a re-analysis of the deposited data

Results flagged for a closer look

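Single libraries stood apart from the rest of their group in 7 of the 160 groups and values examined, where chance alone gives about 5%. The number of flags was thus not above that given by chance. WT_Half replicate 1 had a mean relative log2 CPM of -0.395 over the complex IV genes, with the other 6 WT_Half libraries between -0.11 and 0.0685. Ndufs1 stood apart in 2 WT groups, with 143 CPM in WT_Half replicate 2 (the others 123 to 130) and 156 CPM in WT_Full replicate 4 (the others 111 to 118). WT_Half replicate 2 also held 54.9 CPM of Atp5o, against 37.8 to 45 CPM in the others. Ndufa9 stood at 185 CPM in WT_Con replicate 2 (the others 155 to 159). Uqcr11 was low in WT_Con replicate 3, at 91.5 CPM against 131 to 136 CPM. Uqcrc2 was low in KI_Half replicate 5, at 277 CPM against 309 to 320 CPM.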

How the results depend on the processing

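In KI_Half vs KI_Con, 8 members were called as reported, 17 with limma, 20 with the smooth muscle covariate, 0 with the villus enterocyte covariate, 0 without the acinar-rich control libraries and 5 to 18 with 1 library left out. Ndufb3 (0.0216) and Atp5o (0.0363) turned positive with the enterocyte covariate. In WT_Half vs WT_Con, where 0 were reported, DESeq2 called 2, limma 1, the enterocyte covariate 1 and fits with 1 library left out 0 to 1. In WT_Full vs WT_Con the fit of all 25 libraries called 2 and fits with 1 library left out 0 to 1, and in KI_Half vs WT_Half limma called 1. The interaction of Ndufc2, 0.01 as reported, was -0.0504 with limma and ran from -0.107 (without WT_Con replicate 1) to 0.101 (without WT_Con replicate 3) with 1 library left out. The cause of these changes was not tested. Over all named members and alternatives, 799 values kept their direction and side of the threshold, 39 lost a call, 8 gained a call, 13 changed sign and 1 level moved, that of Atp5a1 (677 CPM per kilobase of its longest transcript against 578). Same-numbered libraries of the compared groups did not deviate together in all pairs of any comparison. With the replicate block 9 members were called in KI_Half vs KI_Con, 6 of them among the 8, and 0 in the other comparisons. Atp5o and Ndufb9 were lost, and Cox7a1, Ndufa1 and Ndufa5 were gained. Depth limits Cox4i2, at about 1 CPM, more than any other member.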
